A study of Mus musculus with 14 samples.

Results

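The SPARC and follistatin-like family was described through 10 genes, Sparc, Sparcl1, Spock1, Spock2, Spock3, Smoc1, Smoc2, Fstl1, Fstl4 and Fstl5, of the 24444 genes in each of 2 deposited tables of mouse cortex expression. They were chosen by symbol, with earlier results of both tables known. Their differences between groups, with the intervals and calls, are therefore given as a description and not as independent tests. All 10 had a row in both tables and all 10 passed the filter on low values in both. Polyadenylated RNA had been sequenced from the cortex of 14 mice. In miR29Nestin mice (P40, n = 3) the floxed miR-29ab1 and miR-29b2c clusters had been deleted with Nestin-Cre, which acts in neural progenitors and so in the neurons, astrocytes and oligodendrocytes that arise from them, while cells of other origin such as microglia are not its intended target. They were set against miR29WT mice of the same age (n = 3), and the labels do not say which floxed or Cre alleles these mice carried. In Dnmt3a-mi5 mice (4.5 months, n = 4) the miR-29 genes were intact and the transcript of the DNA methyltransferase Dnmt3a had lost 5 sites for them in its 3′ UTR through a CRISPR knock-in. They were compared with Dnmt3a-WT mice of 4.5 months (n = 4). The series' design gives these numbers as mice, 1 library each.

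These genes encode secreted, mostly calcium-binding proteins that share a follistatin-like domain and, in most of them, a SPARC-type extracellular calcium-binding domain. They bind collagens, proteoglycans and growth factors around cells and modulate adhesion, proteolysis and signalling, without forming the main fibres of the matrix. In brain, Sparcl1 (hevin) and Sparc are known as astrocyte products with opposed effects on excitatory synapse formation, and the testicans Spock1, Spock2 and Spock3 are proteoglycans made largely by neurons. MicroRNAs of the miR-29 family lower the level of transcripts that pair with their seed, bases 2 to 8, and genes of the extracellular matrix are prominent among their known targets. Sparc has been reported as one of them in bone cells.

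The mature miR-29 sequences are shown because the deletion removed them and because a miR-29 site is a match to their shared seed, given in capitals (RefSeq, GRCm38.p6).
miR-29a-3p: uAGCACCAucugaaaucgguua
miR-29b-3p: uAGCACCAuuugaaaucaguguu
miR-29c-3p: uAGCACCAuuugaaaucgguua
The DNA match to that seed is TGGTGCT, and it was searched on the transcript strand of the longest annotated 3′ UTR of each gene (GENCODE M21, GRCm38). None of the 10 genes held it, against 17.9% of the 11568 genes tested in the miR29 table that had an annotated 3′ UTR, while Dnmt3a held 5. A weaker match to bases 2 to 7 followed by A, GGTGCTA, was searched after the data had been seen and occurred in 2 of the 10, Sparc and Fstl1. These 3 windows are shown because Sparc and Fstl1 share the match and differ in the comparisons below, with the match in capitals.
Sparc, first match: cctggggataaGGTGCTAacatagattta
Sparc, second match: aatacattaacGGTGCTAaaaaaaaaaaa
Fstl1: tgttaaccaaaGGTGCTAtttctctgtaa
The Sparc matches lie on the minus strand of chromosome 11 at 55395469 to 55395475 and at 55395436 to 55395442, in an exon, at bases 110 and 143 of a 3′ UTR of 1085 bases. Their starts are 33 bases apart. The Fstl1 match lies on the plus strand of chromosome 16 at 37834572 to 37834578, in an exon, at base 646 of a 3′ UTR of 2588 bases. GGTGCTA was present in 8.84% of the 11568 UTRs, counting those that also held the full seed match. Of the 9495 UTRs without the full match, 4.64% held GGTGCTA. With full matches counted again, it was present in 4.99% of 761 UTRs within 10% of the length of Sparc's. Of these 1, Sparc, held more than 1 match. Among 1037 UTRs within 10% of the length of Fstl1's, 12.5% held it, counted in the same way. A match is a stretch of letters and was not tested as a site of binding.

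Depth and the state of the models were as follows. Gene counts summed to 11.8 to 13.05 M reads in miR29Nestin and to 9.20 to 14.45 M in miR29WT libraries, as recovered from the values. For the Dnmt3a table only normalised totals of 10.2 to 10.4 M were recovered, and the read depth is unknown. Dnmt3a averaged 5529 ± 300 normalised counts in miR29Nestin and 1662 ± 59.2 in miR29WT cortex (SD, n = 3 each). It averaged 2080 ± 151 in Dnmt3a-mi5 and 1145 ± 84.6 in Dnmt3a-WT cortex (SD, n = 4 each). The rows of the miR-29 genes themselves were at 0 in every library, so these tables do not check the deletion. No gene of 9 marker lists for cortical cell types was at 0 in all libraries of a table. Of all genes tested, 2289 of 12014 (19.1%) were called in the miR29 comparison at a Benjamini-Hochberg adjusted p under 0.05 (limma), and 13 of 10670 (0.122%) in the Dnmt3a-mi5 comparison.

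In miR29Nestin cortex the family was divided: Fstl1 and Smoc2 were higher, and most other members, Sparc and Sparcl1 among them, lay close to their miR29WT values. The call threshold was met by 2 of the 10, both higher, against 19.1% of all tested genes called in either direction and 9.02% called higher. At an unadjusted p under 0.05 (limma) the count was 4 of 10, against 3962 of the 12014 tested genes. Nothing is read from these counts, since the same comparison was known when the genes were chosen. The 10 differences had a median of 0.01 on the log2 scale, against -0.01 for all tested genes, and 5 were positive. The groups did not overlap for 3 members (Fstl1, Smoc2 and Spock1), whereas 37.3% of all tested genes had groups that did not overlap.

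**Figure D1:**
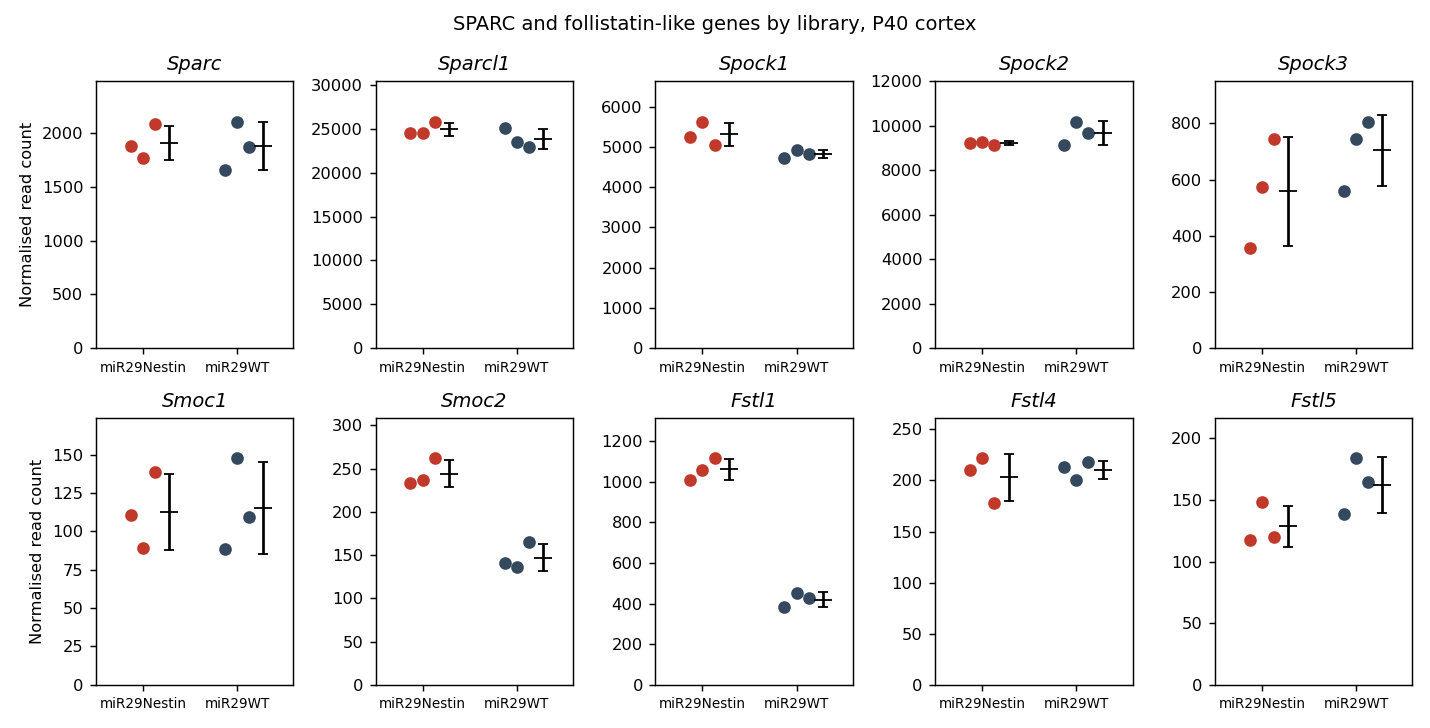
Normalised read count (y axis, linear, from 0) of the 10 genes in each P40 cortex library, with miR29Nestin on the left and miR29WT on the right of each panel (n = 3 each; points are libraries, bars the mean ± SD). Fstl1 and Smoc2 stand apart by group, Spock1 narrowly so, and the libraries of the other 7 genes overlap.

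Fstl1 encodes a secreted glycoprotein that binds BMP ligands and other partners and is made by many mesenchymal cells. Its normalised counts were 1010.1, 1059 and 1115 in miR29Nestin cortex, against 382, 451 and 428 in miR29WT cortex. The lowest miR29Nestin library was 2.24 times the highest miR29WT library, and no library overlapped. The means were 1061 ± 52.7 in miR29Nestin and 420.2 ± 35.2 in miR29WT (SD, n = 3 each), a ratio of 2.53. On the deposited log2 scale, which compresses low values, the difference was 1.06 ± 0.06 (SE), with a 95% interval of 0.92 to 1.20. Ordered by that difference, Fstl1 ranked 21 of the 12014 tested genes. With each library left out in turn the difference stayed between 1.01 and 1.101.

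Smoc2, a matricellular protein with thyroglobulin-type and SPARC-type domains, was the other member called. Its normalised counts were 234, 236 and 262 in miR29Nestin, against 140.5, 136 and 165 in miR29WT. All miR29Nestin libraries lay above all miR29WT libraries, with means of 244 ± 15.5 in miR29Nestin and 147 ± 15.4 in miR29WT (SD, n = 3 each) and a ratio of 1.66. The log2 difference was 0.42 ± 0.07 (SE), with an interval of 0.27 to 0.57. Under a stricter filter on low values Smoc2 was not tested. Its paralogue Smoc1, a BMP modulator needed for eye and limb development, was not higher. Smoc1 counts were 111, 89.3 and 139 in miR29Nestin, against 88.9, 148 and 109.7 in miR29WT. The Smoc1 groups overlapped throughout and the log2 difference was -0.01 (interval -0.23 to 0.21), below that of Smoc2.

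Marker genes of other cells moved beside Fstl1 and Smoc2. Of 6 tested leptomeningeal fibroblast markers 4 (Col1a1, Col1a2, Igf2 and Pdgfra) rose in miR29Nestin cortex, against 9.02% of all tested genes called higher. The summed counts of all 8 listed markers were 2216 to 2576 in miR29Nestin libraries and 1293 to 1719 in miR29WT libraries. Most of these counts were Igf2 and Pdgfra. Igf2 averaged 1162 ± 146 in miR29Nestin and 585 ± 170 in miR29WT, and Pdgfra 785 ± 46.3 in miR29Nestin and 606 ± 32.6 in miR29WT (SD, n = 3 each). The defining marker Dcn averaged 79.7 ± 14.0 in miR29Nestin and 92.7 ± 38.8 in miR29WT (SD, n = 3 each), and Slc6a13 averaged 78.7 ± 11.8 in miR29Nestin and 59.9 ± 10.2 in miR29WT. Pdgfra also marks oligodendrocyte precursors, and Col1a1 and Col1a2 are known miR-29 targets. Of 10 astrocyte markers 5 rose and 1 fell, with sums of 67420 to 72681 in miR29Nestin and 62039 to 63554 in miR29WT. None of 6 endothelial markers was called, and of 6 mural cell markers Pdgfrb rose and Rgs5 fell. Of 6 oligodendrocyte precursor markers Pdgfra and Olig1 rose, with sums of 5150.3 to 5625 in miR29Nestin and 4432 to 4984 in miR29WT. Of 6 oligodendrocyte markers Mbp and Mobp rose, with sums of 103728 to 115825 in miR29Nestin and 95224 to 105921 in miR29WT. None of 6 microglia markers was called. The part of these cells in the Fstl1 and Smoc2 differences was not tested. In bulk RNA more cells of a type and more RNA per cell cannot be told apart.

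Sparc (osteonectin), a collagen-binding matricellular protein, overlapped fully between the groups, and its 3′ UTR holds 2 of the GGTGCTA matches. Its counts were 1881, 1772 and 2084 in miR29Nestin, against 1659, 2108 and 1876 in miR29WT. The log2 difference was 0.02 ± 0.08 (SE), with an interval of -0.15 to 0.20 that leaves out a rise of the size of Fstl1's. Sparc varied more within groups than 88.4% of tested genes. Among the 9495 tested genes whose 3′ UTR lacked the full seed match, 441 held GGTGCTA, and 17.0% of those 441 were called higher in miR29Nestin, against 6.24% of genes with no GGTGCT in the UTR. UTR length was not matched in that count, and no test was made of it.

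Sparcl1, the member at the highest level, binds neurexin and neuroligin at synapses. It had 24531, 24545 and 25804 counts in miR29Nestin, against 25149, 23456 and 22950 in miR29WT. One miR29WT library lay within the miR29Nestin range, and the log2 difference was 0.07 ± 0.04 (SE), with an interval of -0.03 to 0.16.

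The 3 testicans, secreted proteoglycans that carry the SPARC-type domain and are known to inhibit or modulate proteases, had differences of unlike sign. Spock1 had 5248, 5627 and 5059 counts in miR29Nestin, against 4728, 4919 and 4826 in miR29WT. Its lowest miR29Nestin library was 1.03 times the highest miR29WT library, so the groups were separate by a narrow margin. The log2 difference was 0.13 ± 0.05 (SE), with an interval of 0.02 to 0.24, and Spock1 was not called. Spock2 had 9241, 9272 and 9112 counts in miR29Nestin, against 9122, 10175 and 9691 in miR29WT. Its log2 difference was -0.07 ± 0.05 (SE), the groups overlapped, and the 3 miR29Nestin libraries lay closer together than those of miR29WT. Of 6 excitatory neuron markers 4 fell and none rose, against 1205 of the 12014 tested genes called lower. Their sums were 61934 to 65813 in miR29Nestin and 70319 to 81153 in miR29WT. Of 7 interneuron markers 2 rose (Gad1 and Pvalb) and 2 fell (Gad2 and Sst), against 19.1% of all tested genes called. Interneuron sums were 10925 to 12013.6 in miR29Nestin and 11086 to 11908 in miR29WT. The part of these markers in the testican values was not tested.

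Spock3 had the widest spread of the 10 genes. Its counts were 356, 572 and 746 in miR29Nestin, against 561, 745 and 806 in miR29WT. It varied more within groups than 99.5% of tested genes, and the groups overlapped, with 2 of 3 miR29Nestin libraries inside the miR29WT range. The means were 558 ± 195 in miR29Nestin and 704 ± 128 in miR29WT (SD, n = 3 each), and the log2 difference was -0.29 ± 0.17 (SE), which was not called. With the replicate number as a block, a pairing taken from the data and not from the labels, the SE of the same difference was 0.07. Spock3 was then called lower. The same block called Spock1 higher, so that 4 of the 10 genes were called with it, against 25.3% of all tested genes. In each same-numbered pair Spock3 was lower in the miR29Nestin library. Leaving out miR29Nestin library 1 left a difference of -0.07, and leaving out miR29Nestin library 3 gave -0.48, with Spock1 and Spock3 then called. By Y-linked genes 1 of 3 miR29Nestin and 2 of 3 miR29WT libraries were male, and with a term for sex, added after the data had been seen, the Spock3 difference was -0.42 ± 0.14 (SE) and was not called. With that term Fstl1 differed by 1.03 and Smoc2 by 0.43, and both were called.

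Fstl4 and Fstl5 encode follistatin-like proteins with immunoglobulin domains. Fstl4 had 211, 221.5 and 178 counts in miR29Nestin, against 213, 201 and 218 in miR29WT. The groups overlapped and the log2 difference was -0.03 (interval -0.18 to 0.12). Fstl5 had 118, 148 and 119.9 counts in miR29Nestin, against 139, 184 and 165 in miR29WT. Its means were 129 ± 16.9 in miR29Nestin and 162 ± 22.6 in miR29WT (SD, n = 3 each), with 1 library of each group inside the range of the other. The log2 difference of Fstl5 was -0.18 ± 0.08 (SE), with an interval of -0.35 to -0.005, and it was not called. Within the follistatin-like genes the difference of Fstl1 was thus the only one above 0.

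In Dnmt3a-mi5 cortex, where miR-29 was present, the family lay close to Dnmt3a-WT values. None of the 10 was called and none had groups that did not overlap, against 0.122% and 12.0% of all tested genes. At an unadjusted p under 0.05 (limma) the count was 0 of 10 as well, against 14.7% of all tested genes. All 10 differences were under 0.1 in size on the log2 scale, with a median of 0.01 against 0.002 for all tested genes, and the largest was that of Spock1 at -0.06 ± 0.04 (SE). The libraries of this table are numbered by column order only.

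**Figure D2:**
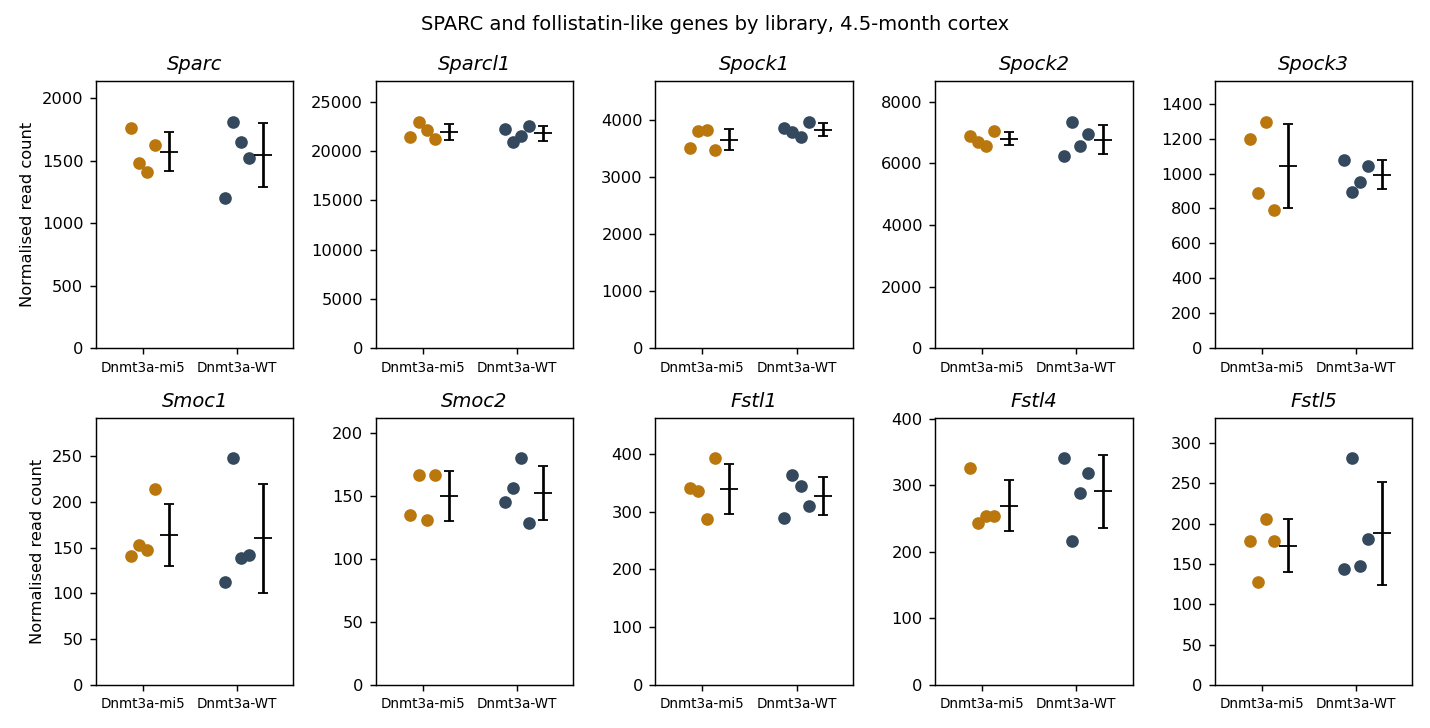
Normalised read count (y axis, linear, from 0) of the 10 genes in each 4.5-month cortex library, with Dnmt3a-mi5 on the left and Dnmt3a-WT on the right of each panel (n = 4 each; points are libraries, bars the mean ± SD). The groups overlap in all 10 panels.

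Fstl1 had 340.3, 336, 287 and 391.9 counts in Dnmt3a-mi5, against 289.6, 364, 344 and 309.8 in Dnmt3a-WT. The highest and the lowest of the 8 libraries were both Dnmt3a-mi5. The log2 difference was 0.03 ± 0.06 (SE), with an interval of -0.10 to 0.15. Smoc2 had 135, 167, 131 and 167 counts in Dnmt3a-mi5, against 145, 157, 179.8 and 128 in Dnmt3a-WT. The ranges of Smoc2 overlapped as well, and the log2 difference was -0.01 ± 0.05 (SE), with an interval of -0.12 to 0.11.

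Sparc had 1764, 1483, 1410 and 1623 counts in Dnmt3a-mi5, against 1202, 1810.4, 1650 and 1520.2 in Dnmt3a-WT. The Dnmt3a-mi5 libraries all lay inside the Dnmt3a-WT range, and the log2 difference was 0.03 ± 0.09 (SE). Sparcl1 ranged from 21215 to 22978 counts in Dnmt3a-mi5 and from 20885 to 22554 in Dnmt3a-WT, with a log2 difference of 0.01 (interval -0.09 to 0.11). None of 10 astrocyte markers was called there, while their sums were 62334 to 64603 in Dnmt3a-mi5 and 69859 to 74092 in Dnmt3a-WT. Most counts in those sums were Slc1a2, at 41632 ± 1159 in Dnmt3a-mi5 and 49580 ± 2512 in Dnmt3a-WT (SD, n = 4 each). The 10 markers had a median log2 difference of -0.03, and Aldh1l1, Gfap, Aldoc, Ntsr2 and Gjb6 were above 0. The part of the markers in the Sparc and Sparcl1 values was not tested. Both synapse-modulating matricellular genes thus had intervals that included 0 in both comparisons.

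Of the testicans, Spock1 ranged from 3476 to 3825 counts in Dnmt3a-mi5 and from 3692 to 3965 in Dnmt3a-WT. Spock2 ranged from 6582 to 7051 in Dnmt3a-mi5 and from 6239 to 7355 in Dnmt3a-WT. Spock3 was again among the most variable genes, with 1196, 889.8, 1296 and 791 counts in Dnmt3a-mi5, against 1080.05, 896, 954 and 1045 in Dnmt3a-WT. The Dnmt3a-mi5 libraries held both the highest and the lowest Spock3 value, and in both tables the spread was wider in the mutant group. None of 6 excitatory neuron and 7 interneuron markers was called there. Excitatory sums were 57035 to 62954.5 in Dnmt3a-mi5 and 62935 to 66785 in Dnmt3a-WT. Interneuron sums were 9815 to 11378 in Dnmt3a-mi5 and 9501 to 9850 in Dnmt3a-WT. The part of these markers in the testican values was not tested. Smoc1 ranged from 141 to 214 in Dnmt3a-mi5 and from 112 to 247 in Dnmt3a-WT, and Fstl4 from 243 to 327 in Dnmt3a-mi5 and from 216 to 340.4 in Dnmt3a-WT. Fstl5 ranged from 128 to 206 in Dnmt3a-mi5 and from 144 to 281 in Dnmt3a-WT. The means of 2 sets of 4 libraries, each with 2 Dnmt3a-mi5 and 2 Dnmt3a-WT libraries, were equal for every gene of this table, so an effect with 2 levels had been removed before deposit. Within the sets the Fstl5 difference was -0.19 in one and 0.10 in the other, the Smoc1 difference -0.10 and 0.14, and the Fstl1 difference 0.03 and 0.02. The set with the negative Fstl5 and Smoc1 differences held Dnmt3a-WT library 2. That library had the highest count of both genes, 281 for Fstl5 and 247 for Smoc1. The other Dnmt3a-WT libraries had 144 to 181 for Fstl5 and 112 to 142 for Smoc1.

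**Figure D3:**
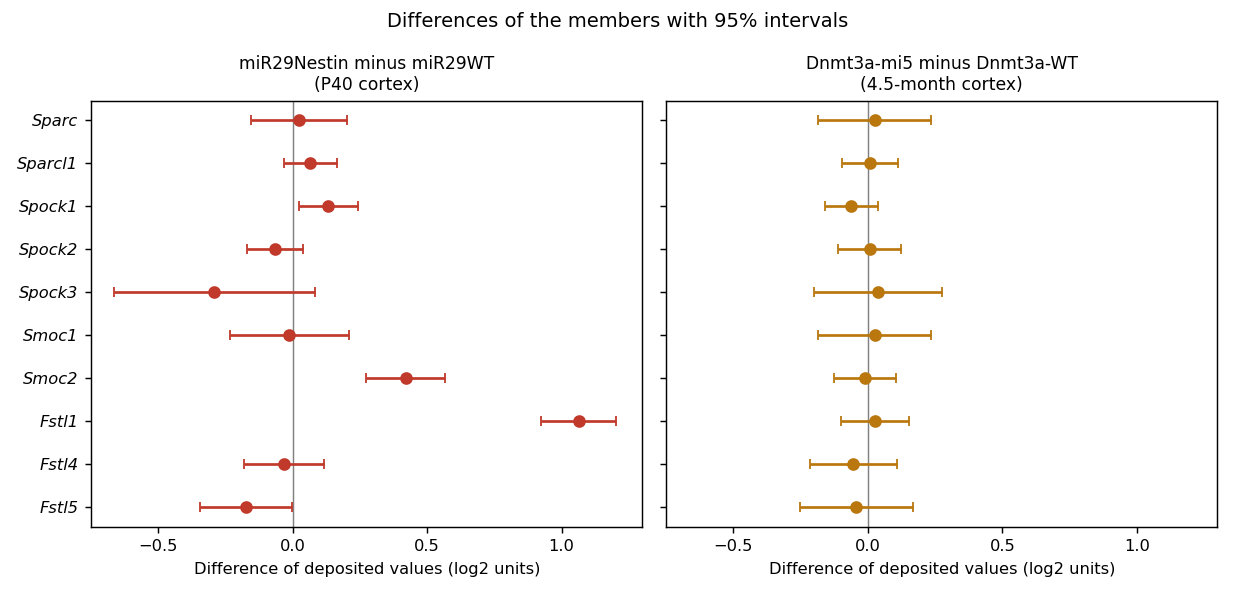
Difference of the deposited log2 values (x axis, log2 units) of the 10 genes, miR29Nestin minus miR29WT on the left (n = 3 each) and Dnmt3a-mi5 minus Dnmt3a-WT on the right (n = 4 each), with points for the estimate and bars for the 95% interval. Fstl1 at 1.06 and Smoc2 at 0.42 lie to the right in the left panel, and all 10 intervals in the right panel include 0.

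Side by side, the Fstl1 difference was 1.06 in miR29Nestin and 0.03 in Dnmt3a-mi5 cortex, 1.04 apart (SE 0.09). For Smoc2 the values were 0.42 in miR29Nestin and -0.01 in Dnmt3a-mi5, 0.43 apart (SE 0.08). For Sparc the differences were 0.02 in miR29Nestin and 0.03 in Dnmt3a-mi5, less than 1 SE of their gap (0.12) from each other. The models also differ in age, RNA kit and library kit, which cannot be told apart from the genotype between them. No test was made of these gaps, because both comparisons were known when the genes were chosen.

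Levels per kilobase of the longest annotated transcript placed the genes in nearly the same order in both tables. Sparcl1 led with 9047 ± 265 normalised counts per kb in miR29Nestin and 8645 ± 417 in miR29WT (SD, n = 3 each). Spock2 followed with 1758 in miR29Nestin and 1845 in miR29WT, then Spock1 with 1151 in miR29Nestin and 1046 in miR29WT, and Sparc with 831 in miR29Nestin and 818 in miR29WT. In miR29WT cortex Spock3 (219.9 ± 39.8) and Fstl1 (111 ± 9.28) came next, and in miR29Nestin cortex their order was turned, with Fstl1 at 280.1 ± 13.9 and Spock3 at 174 ± 61.0 counts per kb. The remaining 4 genes were the lowest. Fstl4 stood at 48.1 ± 1.99, Smoc2 at 37.0 ± 3.87, Smoc1 at 33.0 ± 8.52 and Fstl5 at 31.8 ± 4.42 counts per kb in miR29WT, and Smoc1 lay within its own SD of both Smoc2 and Fstl5, while Smoc2 and Fstl5 lay further apart than the SD of either. Smoc2 reached 61.4 ± 3.89 in miR29Nestin cortex, above Fstl4 there (46.4 ± 5.22). In Dnmt3a-WT cortex the first 7 places were held by the same genes, from Sparcl1 at 7903 to Fstl4 at 66.4 counts per kb, followed by Smoc1 (45.8 ± 17.1), Smoc2 (38.4 ± 5.44) and Fstl5 (36.8 ± 12.5), whose gaps were smaller than the largest SD among them.

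**Figure D4:**
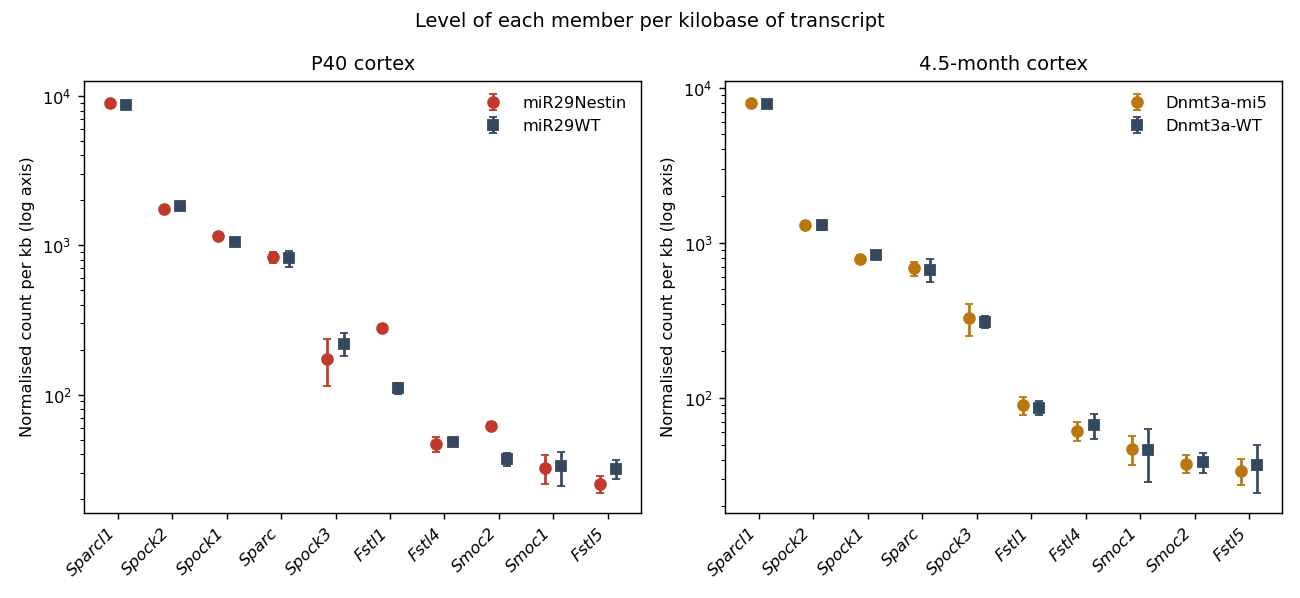
Normalised count per kb of transcript (y axis, log scale) of the 10 genes, ordered by the WT level of each table, in P40 cortex (left) and 4.5-month cortex (right), with points for group means and bars for SD (n = 3 and n = 4 a group). Fstl1 (280.1 in miR29Nestin, 111 in miR29WT) and Smoc2 stand apart by group in the left panel only.

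Other genes with follistatin-like domains or roles near the family were described from 4 lists written with earlier results known. Of 8 tested follistatin-domain relatives 2 rose in miR29Nestin and 1 fell, 3 calls against 19.1% of all tested genes, with a median of 0.03. Htra1, a secreted serine protease, had 2699 ± 215 counts in miR29Nestin and 1554 ± 118 in miR29WT (SD, n = 3 each; log2 difference 0.73 ± 0.07, SE, adjusted p = 7.6e-05). Kazald1 had 124 ± 31.6 counts in miR29Nestin and 48.7 ± 1.71 in miR29WT (0.55 ± 0.09, adjusted p = 0.0016). Agrn, which organises the neuromuscular synapse, fell by 0.18 (adjusted p = 0.036), a call lost on leaving out any library except miR29Nestin replicate 1 and with a term for sex.

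Of 33 tested genes of TGF-beta, BMP and activin signalling, the pathway that follistatins and Fstl1 act on from outside the cell, 4 rose and 3 fell in miR29Nestin, with a median of 0.01. The 7 calls are a share close to the 19.1% of all tested genes. With the replicate block 12 of the 33 were called, against 25.3% of all tested genes. The receptor Acvr1c had 95.1 ± 25.8 counts in miR29Nestin and 181 ± 20.2 in miR29WT (SD, n = 3 each; -0.48 ± 0.09, adjusted p = 0.0051). The signal transducer Smad3 had 1614 ± 70.1 counts in miR29Nestin and 1177 ± 195 in miR29WT (0.41 ± 0.09, adjusted p = 0.010). Id3, a transcriptional target of BMP signalling, had 314 ± 22.1 counts in miR29Nestin and 211 ± 9.45 in miR29WT (0.36 ± 0.06, adjusted p = 0.0027). The other called genes were Tgfb3 and Chrd, which were higher, and Acvr1 and Smad1, which were lower.

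Binding partners of the family and the proteases it acts on made up the next list. Of 14 tested genes 6 rose in miR29Nestin (Col1a1, Col1a2, Col4a1, Col4a2, Mmp14 and Mmp15) and 1 fell (Nlgn1), 7 calls against 19.1% of all tested genes and 9.02% called higher, with a median of 0.18. Col4a2, a basement membrane collagen of the kind Sparc binds, had 1342 ± 76.2 counts in miR29Nestin and 916 ± 15.6 in miR29WT (SD, n = 3 each; 0.47 ± 0.06, adjusted p = 0.00025). Col4a1 had 898 ± 90.5 counts in miR29Nestin and 648 ± 47.4 in miR29WT (0.38 ± 0.07, adjusted p = 0.0044). Mmp14, a membrane-bound metalloprotease that Spock1 and Spock3 are known to inhibit, had 321 ± 57.1 counts in miR29Nestin and 174 ± 26.8 in miR29WT (0.54 ± 0.09, adjusted p = 0.0029). The collagens of this list are themselves known miR-29 targets.

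Among 9 tested factors through which astrocytes shape synapses, 3 rose (Thbs4, Mertk and Il33) and 2 fell (Chrdl1 and Cacna2d1) in miR29Nestin, 5 calls against 19.1% of all tested genes. Cacna2d1, a neuronal receptor of thrombospondins, had 1336 ± 194 counts in miR29Nestin and 2148 ± 14.7 in miR29WT (SD, n = 3 each; -0.63 ± 0.08, adjusted p = 0.00049). Il33 had 568 ± 87.0 counts in miR29Nestin and 316 ± 88.4 in miR29WT (0.62 ± 0.12, adjusted p = 0.0052), and Thbs4, a thrombospondin, 246 ± 57.3 in miR29Nestin and 124 ± 29.7 in miR29WT (0.55 ± 0.11, adjusted p = 0.0058). In Dnmt3a-mi5 cortex 1 gene of the 4 lists was called. Cacna2d1 had 2518 ± 151 counts in Dnmt3a-mi5 and 3232 ± 124 in Dnmt3a-WT (SD, n = 4 each; -0.32 ± 0.05, adjusted p = 0.042), and that call was lost on leaving out any library except Dnmt3a-WT library 2.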

How the data were processed

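Polyadenylated RNA of 14 cortex samples went into stranded libraries that the authors read from both ends, with RNeasy and TruSeq kits for the miR29 mice and Direct-zol and KAPA kits for the Dnmt3a mice, per the labels' protocols. Named in the submitters' processing notes are DESeq2, Salmon, STAR and cutadapt and the builds hg19 and mm9, with no versions or roles. The authors deposited log2 values from a variance-stabilising transformation, 1 table of 24444 genes for each model, and each table was analysed alone. Normalised counts were obtained by inverting that transformation from the value of genes without reads. For the miR29 libraries, 83.3 to 87.0% of low values (under 20 reads) then fell within 0.05 reads of a whole number. In the Dnmt3a table the counts are approximate, since 2546 genes had a value below that level, and its repeated column names give the group only.

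Groups were compared with limma 3.58.1 (R 4.3.3; mean-variance trend, Benjamini-Hochberg adjustment over all genes tested, those past a filter of a mean 1 or more above the table's minimum; called at an adjusted p under 0.05). The Dnmt3a fit held a term for the 2 sets of 4 libraries whose means were equal for every gene within 5.5e-09, against 0.538 for the next such split. Same-numbered miR29 libraries deviated together (correlations 0.335, 0.204 and 0.186), so the numbers were taken to pair them, from the data and not from the labels. Libraries numbered 1 were male in both groups and those numbered 2 female, by Y-linked genes. These correlations cannot tell pairing apart from shared sex. Every per-sample column was used. The members and gene lists were chosen with earlier results of these data known. Named genes are the members, Dnmt3a and the 3 called genes of each list with the largest difference in each table, with markers and list genes outside that rule named by symbol where counted. Alternatives were the filter, the scale, the centring, a robust prior, the block, the set term, a sex term and leaving out each library. Python 3.11.15 with numpy 2.4.6, pandas 2.3.3 and matplotlib 3.10.9 made the summaries and figures.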

Additional observations from a re-analysis of the deposited data

Results flagged for a closer look

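Fstl4 in Dnmt3a-mi5 library 1 stood apart from the other 3 Dnmt3a-mi5 libraries. Its value was 9.37 on the log2 scale (327 normalised counts), the nearest other library was at 9.19, and the gap took 0.848 of the range of the group, above Dixon's critical value for 4 samples. Of 46 such groups examined, 1 was beyond that value, and chance alone flags about 1 in 20.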

How the results depend on the processing

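Of 271 alternative values of the members' differences, 268 moved by less than the replicate spread, 3 moved further, and 0 called members changed sign, while uncalled differences near 0 did (Sparc at -0.05 to 0.10 in the miR29 comparison). The 3 were on a log2 scale of counts plus 1, with Fstl1 at 1.34, Smoc2 at 0.73 and Fstl5 at -0.33 in miR29Nestin against miR29WT. Of 196 alternatives for the other named genes, 14 lost their call and 0 reversed. In the miR29 comparison members called numbered 1 under the stricter filter, 4 with the replicate block and 2 to 4 without each library in turn, and all genes called numbered 1399 to 2314 without each library. The 4 members came without miR29Nestin replicate 3, and 1474, 1399 and 1435 genes were called without miR29Nestin replicate 2, miR29WT replicate 2 and miR29WT replicate 3. TGF-beta, BMP and activin genes called numbered 12 with the replicate block and 4 to 7 without each library, and binding partners 4 to 7, with the lowest count without miR29Nestin replicate 2 for the first list and without miR29WT replicate 2 for the second. In the Dnmt3a-mi5 comparison 85 genes were called with no set term and 1 to 81 without each library, the 81 without Dnmt3a-WT library 2 and 1 to 6 without any other. Its TGF-beta, BMP and activin genes called numbered 2 with no set term and 0 to 2 without each library. Its binding partners numbered 1 with no set term, 1 with a robust prior and 0 to 1 without each library, and its astrocyte synapse factors 0 to 1. The cause of these shifts was not tested. A GGTGCTA match was found in 2 members and GGTGCT in 4, both searched after the data had been seen. In the Dnmt3a table the column names give both groups the numbers 1 and 2 within each set, and a replicate block on them was added after the data had been seen. Same-numbered libraries correlated at -0.555 to -0.147 and none correlated best with its own number. Removing the 2-level effect had made the summed deviations of the 2 groups within a set opposite in sign. Negative correlations within a set were therefore favoured in advance, and the check cannot decide whether the numbers pair these libraries. With that replicate block 2 genes, 0 members and 0 astrocyte synapse factors were called. With 3 or 4 libraries a group, the main fit could not detect differences of Spock3, Smoc1 or Fstl5 smaller than their intervals. Depth is also unknown in the Dnmt3a table. In the miR29 comparison Spock3 was called lower with the replicate block and without miR29Nestin replicate 3.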
